A study of Homo sapiens with 4 samples.

Results

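Amino acids enter and leave cells through carriers in the plasma membrane, most of them proteins of the solute carrier (SLC) families. Some carriers exchange one amino acid for another, some use the sodium gradient to accumulate their substrate, and some let it pass down its own gradient. Many carrier genes are transcribed more when amino acids run short, when the kinase GCN2 slows translation and the transcription factor ATF4 is made. In prostate cancer the carriers of leucine, glutamine and cystine are studied for their part in growth and in the supply of the antioxidant glutathione.

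The 10 carriers described here were taken as a fixed list of gene symbols: SLC7A11, SLC3A2, SLC7A5, SLC7A1, SLC1A4, SLC1A5, SLC38A1, SLC38A2, SLC6A9 and SLC43A1. The list was chosen with earlier results of these data known, so counts of its members beside shares of all genes are descriptions. All 10 were present among the 25343 genes of both tables, and all 10 passed a filter of a mean of at least 1 CPM, reads scaled to a common library size, in each table.

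RNA was sequenced from 2 human prostate cancer lines carrying lentiviral short hairpin RNAs under antibiotic selection. The 4 groups were C4-2B ENZR with a hairpin aimed at coding sequence of MAOA, C4-2B ENZR with a non-targeting hairpin as control, LNCaP with the MAOA hairpin, and LNCaP with the control hairpin. The product of MAOA, monoamine oxidase A, sits on mitochondria and breaks down serotonin and noradrenaline. LNCaP is an androgen-responsive line, and C4-2B ENZR is a line related to it that resists the antiandrogen enzalutamide. The medium of both lines held 10% fetal bovine serum, and both C4-2B ENZR groups were also kept in 20 µM enzalutamide. Each group had 1 library, of selected cells and not of a named clone, so a difference within a line has no replicate check. The names of the MAOA knockdown libraries differ between the lines, and whether the hairpin sequence was the same is not stated.

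The libraries held 23479051 to 23679869 reads in C4-2B ENZR and 52012696 to 52550452 reads in LNCaP. MAOA stood at 219 CPM in the C4-2B ENZR knockdown against 327 CPM in its control, and at 140 CPM in the LNCaP knockdown against 445 CPM in its control. All 10 markers of prostate luminal epithelium had a mean of at least 1 CPM in both lines, but KLK3, which encodes prostate-specific antigen, stood at 6.34 and 3.72 CPM in the C4-2B ENZR knockdown and control against 2716 and 2391 CPM in those of LNCaP. The 3 basal markers summed to at most 1.15 CPM in any library, and the leukocyte markers PTPRC and CD3E were at 0.202 CPM or less. The leukocyte list summed to 16.0 CPM in the knockdown and 15.2 CPM in the control of C4-2B ENZR, and to 29.3 and 19.9 CPM in the knockdown and control of LNCaP, nearly all of it CD68 and LYZ. Of the 6 fibroblast markers COL1A2 was at 0 in all libraries, and COL1A1 made most of a sum of 58.1 and 47.4 CPM in the knockdown and control of C4-2B ENZR and of 63.5 and 56.6 CPM in those of LNCaP. The part of these genes in the results was not tested.

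In C4-2B ENZR all 10 transporters had more RNA in the MAOA knockdown library than in the control library, as did 50.4% of all measured genes. The median log2 ratio of knockdown over control was 0.50 for the transporters, against 0.00 for the 13810 genes measured. Ratios are the log2 of (knockdown CPM + 1)/(control CPM + 1), taken within a table. SLC7A11, SLC6A9, SLC7A5 and SLC1A4 were at least 1.5-fold higher, 4 of 10 where 1.59% of all measured genes were, and none was 1.5-fold lower, against 0.963% of all genes. In LNCaP the transporters lay close to the rest of the transcriptome. All 10 ratios were above 0 as deposited, 9 with TMM factors recomputed on the recovered reads or with DESeq2 size factors, 8 when centred and 5 when rescaled to the same sum. As deposited their median was 0.22, while 66.6% of all measured genes were above 0 with a median of 0.11. The deposited LNCaP columns sum to values that differ by 0.20 on the log2 scale, knockdown over control, although the libraries hold nearly the same number of reads, and that difference enters each LNCaP ratio. With recomputed TMM the LNCaP median was 0.0933 for the transporters and 0.00 for all measured genes. None of the 10 was 1.5-fold higher or lower in LNCaP, where 4.98% and 1.57% of 13787 measured genes were. Whether the lines differ could not be tested, because an interaction of line and knockdown would use up all 4 libraries. In bulk RNA, fewer cells with a transcript and less of it per cell cannot be told apart.

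**Figure D1:**
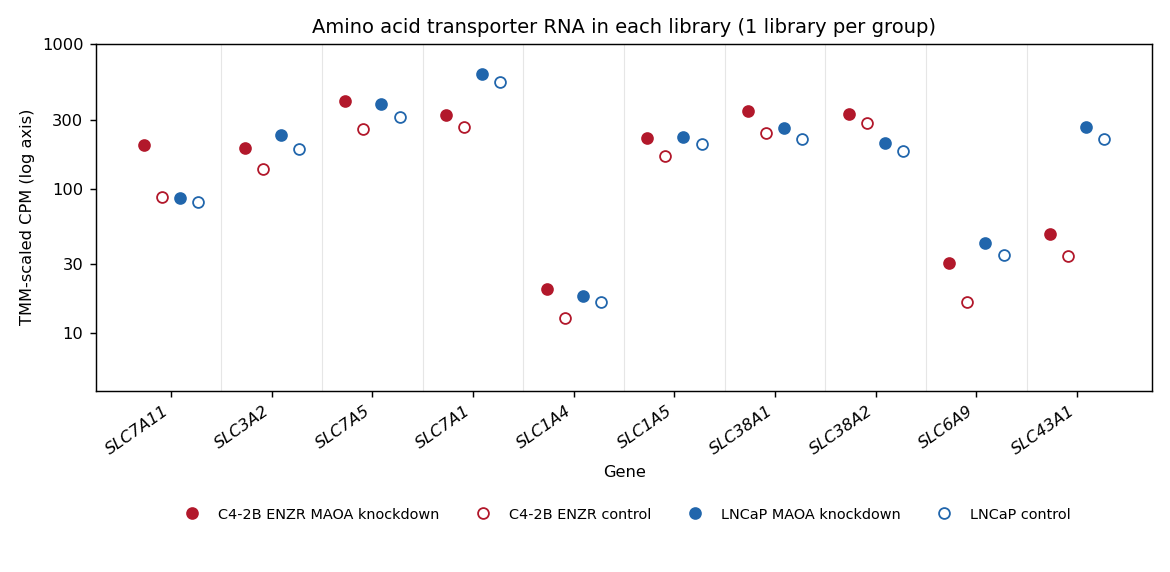
RNA level of each transporter gene (vertical, log axis, TMM-scaled CPM) in the 4 libraries, with filled points for MAOA knockdown and open points for control, red for C4-2B ENZR and blue for LNCaP. Each filled red point lies above its open red point, most clearly for SLC7A11 at 201 and 86.7 CPM, while filled and open blue points lie close together.

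**Figure D2:**
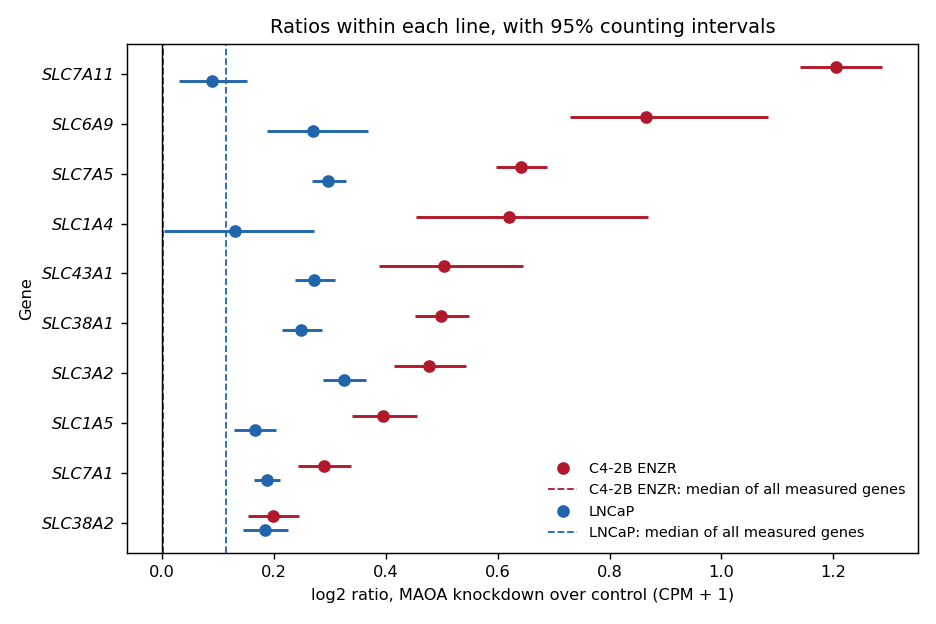
log2 ratio of MAOA knockdown over control for each gene (horizontal) in C4-2B ENZR (red) and LNCaP (blue), with bars for 95% counting intervals and dashed lines at the median of all measured genes. Red points run from 0.20 for SLC38A2 to 1.20 for SLC7A11 and blue points from 0.09 for SLC7A11, which is below 0 under the other scalings, to 0.33 for SLC3A2.

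Over both lines the knockdown effect was fitted with limma on log2(CPM + 1), with the line as a term and Benjamini-Hochberg adjustment over all 13114 genes with a mean of at least 1 CPM in both tables. SLC7A11, SLC6A9, SLC7A5, SLC3A2 and SLC43A1 rose, 5 of 10 members where 4.22% of all genes tested rose. None fell, where 1.49% of all genes did. No member had a negative estimate at an unadjusted p under 0.05 in limma, edgeR or DESeq2. The fit has 1 residual degree of freedom and leans on a spread pooled over genes with 276 prior degrees of freedom, so a large ratio in C4-2B ENZR alone can carry a call. In edgeR on the recovered reads with trimmed mean of M-values (TMM) factors recomputed none of the 10 passed, with adjusted p from 0.0923 to 0.512, where 1.33% of all genes rose. At an unadjusted p under 0.05 it gave 6 of the 10 as higher, where 10.2% of all genes tested were.

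The heavy chain SLC3A2 pairs with light chains of the SLC7 family, such as SLC7A5 and SLC7A11, and carries them to the cell surface. It stood at 190 CPM in the C4-2B ENZR knockdown against 136 CPM in the control, and at 236 CPM in the LNCaP knockdown against 188 CPM in the control. The log2 ratios were 0.48 in C4-2B ENZR (95% counting interval 0.42 to 0.54) and 0.33 in LNCaP (0.29 to 0.36), the largest LNCaP ratio among the 10. SLC3A2 rose over both lines (mean log2 ratio 0.40, SE 0.13, limma adjusted p = 0.037), but in edgeR under the deposited scaling its adjusted p was 0.0516. Counting intervals cover only the sampling of reads and not the difference between cultures, and they take the deposited scaling as exact. With recomputed TMM the LNCaP ratio was 0.20 for SLC3A2, 0.17 for SLC7A5, 0.15 for SLC43A1 and 0.15 for SLC6A9. Each of these lies below the counting interval printed for that gene.

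SLC7A11 is the light chain of the exchanger that brings in cystine and exports glutamate, and cystine gives the cysteine of glutathione. It was at 201 CPM (4949 reads) in the C4-2B ENZR knockdown and at 86.7 CPM (2145 reads) in the C4-2B ENZR control. In LNCaP it was at 86.4 CPM (4221 reads) in the knockdown and at 81.1 CPM (4603 reads) in the control. Of the 4 libraries the C4-2B ENZR knockdown alone stood apart, while the other 3 lay between 81.1 and 86.7 CPM on scales that were set separately for each line. The log2 ratio was 1.20 in C4-2B ENZR (counting interval 1.14 to 1.29), where 23 of 13810 genes had a higher one, and 0.09 in LNCaP (0.03 to 0.15), where 53.6% of genes had a higher one. Centred on the median of genes with a mean of at least 10 CPM the LNCaP ratio was -0.0445, and with recomputed TMM it was -0.0334. SLC7A11 rose over both lines in limma (mean log2 ratio 0.65, SE 0.13, adjusted p = 8.44e-05). The pooled SE leaves out the gap between 1.20 and 0.09, and the adjusted p was 0.148 in edgeR with recomputed TMM and 0.813 in DESeq2.

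Of the genes with a mean of at least 10 CPM in both tables, 15 were 2-fold higher in the C4-2B ENZR knockdown, SLC7A11 among them. The other 14 all had a higher LNCaP ratio than SLC7A11, with log2 values from 0.38 to 2.99 and a median of 0.88. This count was chosen after the values of SLC7A11 were seen and is a description. Among 9360 other genes at that level, COLCA1, NEAT1, PCK2, ADM2, CTH and ASIC1 had the pair of ratios nearest to that of SLC7A11, at Euclidean distances of 0.35 to 0.47 log2 units over the 2 lines. PCK2 encodes the mitochondrial enzyme that makes phosphoenolpyruvate, and CTH the enzyme that releases cysteine from cystathionine. COLCA1 was the nearest, with log2 ratios of 0.86 in C4-2B ENZR and 0.12 in LNCaP, and CTH had 1.14 and 0.53.

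SLC7A5 is the light chain that carries leucine and other large neutral amino acids, usually in exchange for glutamine. It was at 406 CPM in the C4-2B ENZR knockdown against 260.0 CPM in the control, and at 381 CPM in the LNCaP knockdown against 310.1 CPM in the control. The knockdown library was the higher one in each line. The log2 ratios were 0.64 (counting interval 0.60 to 0.69) in C4-2B ENZR and 0.30 (0.27 to 0.33) in LNCaP, and SLC7A5 rose over both lines (mean 0.47, SE 0.14, limma adjusted p = 0.0201), also in edgeR with the deposited scaling (0.0287). The pseudogenes SLC7A5P1 and SLC7A5P2 are near-identical to parts of SLC7A5, so reads could be split between them. They held at most 0.969 and 4.73 CPM in any library, and with both added the ratios of SLC7A5 were 0.63 and 0.29.

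The number of light chain reads per SLC3A2 read does not depend on how a library was scaled. It does depend on transcript length, 9645 nt for SLC7A11 and up to 2222 nt for SLC3A2, so it does not count transcripts. For SLC7A11 there were 1.06 reads per SLC3A2 read in the C4-2B ENZR knockdown and 0.637 in its control, against 0.366 in the LNCaP knockdown and 0.431 in its control. For SLC7A5 there were 2.14 and 1.91 in the knockdown and control of C4-2B ENZR, and 1.61 and 1.65 in those of LNCaP. SLC7A11 was thus higher relative to the heavy chain in the C4-2B ENZR knockdown than in its control and lower in the LNCaP knockdown than in its control, from single libraries.

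SLC43A1 carries large neutral amino acids without a heavy chain and was first named for its high level in prostate cancer. It was at 48.5 CPM in the C4-2B ENZR knockdown against 33.9 CPM in the control, and at 267 CPM in the LNCaP knockdown against 221 CPM in the control. SLC43A1 had the widest gap between the lines of the 10 as a fold, with both LNCaP libraries above both C4-2B ENZR libraries on separately set scales. Its log2 ratios were 0.50 (counting interval 0.39 to 0.65) and 0.27 (0.24 to 0.31), and it rose over both lines (mean 0.39, SE 0.12, limma adjusted p = 0.037), though not in edgeR with the deposited scaling (0.0586).

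SLC6A9, a sodium-coupled glycine carrier, was at 30.7 CPM in the C4-2B ENZR knockdown against 16.4 CPM in the control, and at 41.7 CPM in the LNCaP knockdown against 34.4 CPM in the control. After SLC7A11 it had the largest ratio in C4-2B ENZR, log2 0.87 (counting interval 0.73 to 1.08, from 754 reads in the knockdown and 405 in the control), and 0.27 (0.19 to 0.37) in LNCaP. It rose over both lines (mean 0.57, SE 0.14, limma adjusted p = 0.00239), but not in edgeR with recomputed TMM (0.109).

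The other 5 members did not pass the limma test. SLC7A1, which carries arginine and lysine, was at 325 CPM in the C4-2B ENZR knockdown against 266 CPM in the control, and at 621 CPM in the LNCaP knockdown against 545 CPM in the control. Its ratios of 0.29 and 0.19 were among the smaller ones (limma adjusted p = 0.371). It gave more reads than any other member in both LNCaP libraries, without regard to transcript length.

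SLC1A5 and SLC1A4 exchange neutral amino acids, glutamine for the first and serine and alanine for both. SLC1A5 was at 222 CPM in the C4-2B ENZR knockdown against 169 CPM in the control, and at 227 CPM in the LNCaP knockdown against 202 CPM in the control (limma adjusted p = 0.201). SLC1A4 was at 20.1 CPM in the C4-2B ENZR knockdown against 12.7 CPM in the control, and at 18.1 CPM in the LNCaP knockdown against 16.4 CPM in the control (limma adjusted p = 0.116). The log2 ratio of SLC1A4 was 0.62 in C4-2B ENZR, past 1.5-fold, and 0.13 in LNCaP with a counting interval of 0.00 to 0.27. The interval is wide because SLC1A4 had the fewest reads of the 10, 315 to 933 per library.

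SLC38A1 and SLC38A2 use the sodium gradient to take up glutamine, alanine and other small neutral amino acids. SLC38A1 was at 343 CPM in the C4-2B ENZR knockdown against 243 CPM in the control, and at 260.2 CPM in the LNCaP knockdown against 219 CPM in the control (limma adjusted p = 0.0715). It passed when each ratio was centred on the median of its line (0.032). SLC38A2 was at 328 CPM in the C4-2B ENZR knockdown against 286 CPM in the control, and at 208 CPM in the LNCaP knockdown against 183 CPM in the control (limma adjusted p = 0.458). SLC38A2 had the smallest C4-2B ENZR ratio of the 10, 0.20, and the ratio nearest to its LNCaP value, 0.18.

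**Figure D3:**
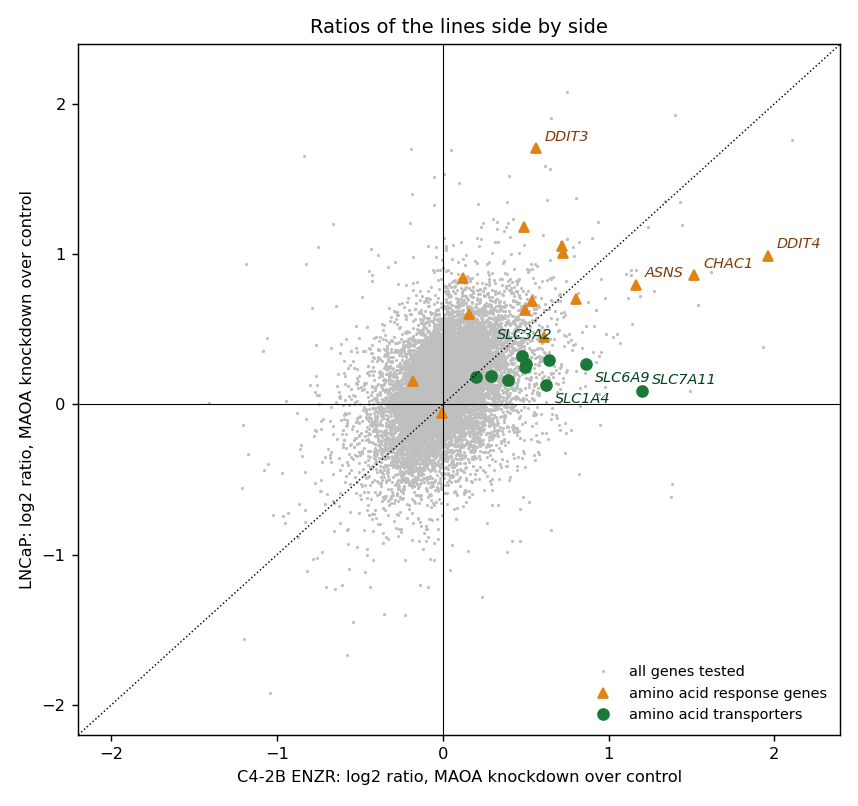
log2 ratio of MAOA knockdown over control in C4-2B ENZR (horizontal) and LNCaP (vertical) for the transporters (green), the amino acid response genes (orange triangles) and all genes tested (grey), where the dotted line marks equal ratios and 4 genes lie outside the axes. All transporters lie below the dotted line, SLC7A11 farthest from it at 1.20 and 0.09, while DDIT3 lies far above it at 0.56 and 1.71.

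The make-up of the transporter reads within a library is also free of scaling. Shares of different genes depend on transcript length as well as on level. The 10 genes together took 0.220% of the reads of the C4-2B ENZR knockdown and 0.159% of those of its control, and 0.220% and 0.216% of those of the LNCaP knockdown and control. SLC7A11 made up 9.52% of the transporter reads in the C4-2B ENZR knockdown (95% Clopper-Pearson interval 9.27 to 9.77), against 5.75% in its control (5.52 to 5.99). In LNCaP it made up 3.68% in the knockdown (3.57 to 3.79), against 4.05% in its control (3.94 to 4.17). The share of SLC38A2 went the other way in C4-2B ENZR, with 15.5% in the knockdown and 19.0% in the control. Its own level was higher in the knockdown (log2 ratio 0.20), and a share falls where other members rise more. The lines differed more than the hairpins did for SLC43A1, which had 2.29% and 2.25% in the C4-2B ENZR knockdown and control and 11.4% and 11.0% in those of LNCaP. SLC7A1 likewise had 15.4% and 17.6% in the knockdown and control of C4-2B ENZR and 26.5% and 27.3% in those of LNCaP. The lines also carry different lane suffixes in their library names and differ in reads per library, and enzalutamide is stated for C4-2B ENZR alone. Line, lane, depth and drug cannot be told apart here.

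**Figure D4:**
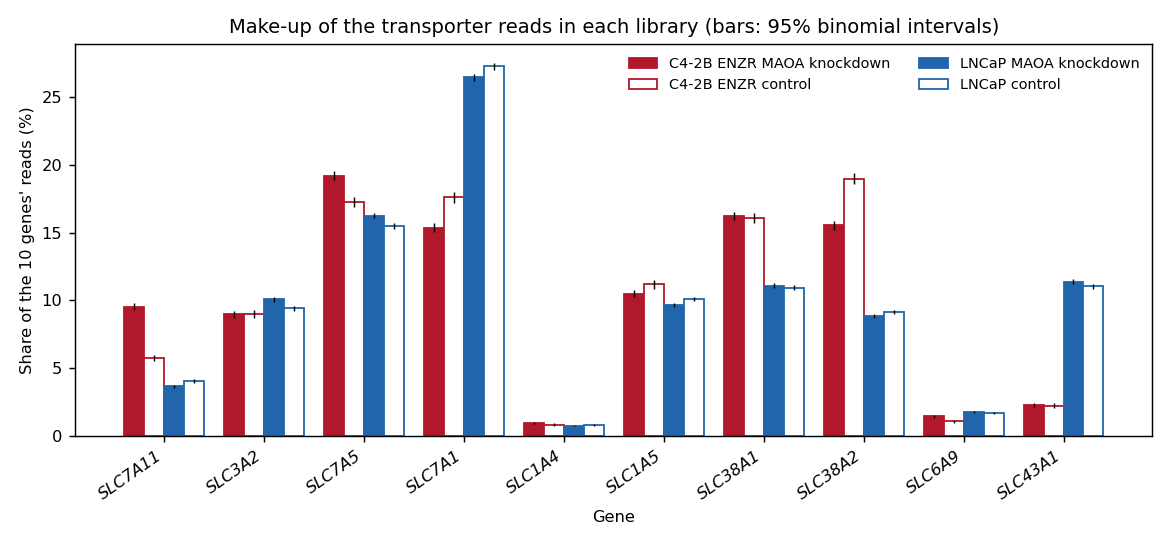
Share of the reads of the 10 transporter genes that each gene took (vertical, percent) in the 4 libraries, with filled bars for MAOA knockdown, open bars for control and 95% binomial intervals. SLC7A11 stands at 9.52% in the C4-2B ENZR knockdown against 5.75% in its control, and SLC43A1 at 11.4% and 11.0% in LNCaP against 2.29% and 2.25% in C4-2B ENZR.

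Levels of different genes were also compared per kilobase, since read counts depend on transcript length. The longest GENCODE transcript that has a RefSeq mRNA was used as length. In the C4-2B ENZR knockdown SLC7A5 was highest at 89.5 CPM per kilobase, followed by SLC3A2 at 85.4 and SLC1A5 at 77.1, and in its control SLC3A2 led at 61.2. In LNCaP SLC3A2 was at 106 and SLC43A1 at 103 CPM per kilobase in the knockdown, and at 84.8 and 85.0 in the control. SLC7A11, whose transcript of 9645 nt is the longest of the 10, was at 20.9 CPM per kilobase in the C4-2B ENZR knockdown, 8.99 in its control, 8.96 in the LNCaP knockdown and 8.41 in its control. The order depends on which transcripts are used, since with the shortest such transcripts SLC38A2 would lead in all 4 libraries, at 149.5 to 269 CPM per kilobase.

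Stretches before the start sites are shown for 3 transporter genes that hold the core of the antioxidant response element, the site bound by the factor NRF2, and for SLC6A9, which rose and does not. The windows are from RefSeq on GRCh38.p14, cover 250 bases before and 50 after a start, and were matched for 9 of 10 members in 16 windows, without SLC7A11. Each is printed 5′ to 3′ on the gene's strand from 100 bases before the start, with capitals marking TGACNNNGC, searched on both strands.
SLC3A2, chr11:62881599-62881698, plus strand: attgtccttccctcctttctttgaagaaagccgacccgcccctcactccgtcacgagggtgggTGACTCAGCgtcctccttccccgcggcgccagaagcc
SLC7A5, chr16:87869501-87869607, minus strand: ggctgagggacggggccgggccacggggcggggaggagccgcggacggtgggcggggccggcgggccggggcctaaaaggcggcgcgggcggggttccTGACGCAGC
SLC7A1, chr13:29595689-29595788, minus strand: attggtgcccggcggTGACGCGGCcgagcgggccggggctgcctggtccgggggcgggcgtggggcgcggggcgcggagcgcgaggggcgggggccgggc
SLC6A9, chr1:44031463-44031562, minus strand: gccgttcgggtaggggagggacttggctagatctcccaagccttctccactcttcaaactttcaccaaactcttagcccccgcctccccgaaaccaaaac

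The match lay 37 bases before the start in SLC3A2, 85 bases before it in SLC7A1, and across it in SLC7A5, where it began 2 bases before. A window of SLC1A5 held the letters too, so 4 of 16 windows had a match (25%), against 13.3% of all 35116 windows. The element bound by C/EBP and ATF factors, searched as TGATGNAAT on both strands, occurred in none of the 16 windows and in 0.991% of all windows. At so low a share 16 windows would seldom hold a match, so its absence does not set these windows apart from others. Nor does it show that these genes lack the element, since only these windows and exact letters were searched, without SLC7A11. A match describes letters in these windows only and says nothing of binding.

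Other carriers were counted from lists chosen by function, with earlier results of these data known. Of 26 other plasma membrane amino acid carriers 10 were tested, and none rose or fell in limma, nor in edgeR with recomputed TMM. In limma 4.22% of all genes tested rose and 1.49% fell, so 10 genes could well hold none. Of 12 measured in C4-2B ENZR 1 was past 1.5-fold higher, where 1.59% of all measured genes were. It was SLC6A15, a carrier of neutral amino acids named after its values were seen, with 47 reads in the knockdown and 23 in the control. The median log2 ratio was -0.0373 over the 12 measured in C4-2B ENZR and 0.16 over the 10 measured in LNCaP. SLC7A8, a further light chain for large neutral amino acids, was at 86.2 and 79.7 CPM in the C4-2B ENZR knockdown and control and at 185 and 156 CPM in those of LNCaP. SLC7A6, a light chain for basic and neutral amino acids, had 61.8 CPM in the C4-2B ENZR knockdown against 68.7 CPM in the control, and 45.3 CPM in the LNCaP knockdown against 49.3 CPM in the control. SLC43A2, the closest relative of SLC43A1 on the list, was at 68.6 and 71.5 CPM in the C4-2B ENZR knockdown and control and at 65.2 and 82.3 CPM in those of LNCaP.

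Inside the cell, 7 lysosomal and 8 mitochondrial amino acid carriers were tested, and none rose or fell. With 4.22% of all genes tested rising and 1.49% falling, lists of this size could well hold none. SLC36A1, which exports small amino acids from lysosomes, was at 29.6 CPM in both the knockdown and the control of C4-2B ENZR, while in LNCaP it had 78.0 CPM in the knockdown against 49.7 CPM in the control. SLC25A29, a mitochondrial carrier of basic amino acids, had 19.5 CPM in the C4-2B ENZR knockdown against 22.0 CPM in the control, and 123 CPM in the LNCaP knockdown against 78.4 CPM in the control. As deposited, those 2 were past 1.5-fold in LNCaP (both at log2 0.64, where 1.5-fold is 0.58) and not in C4-2B ENZR, opposite to SLC7A11. Centred on the LNCaP median of 0.13 neither would be past 1.5-fold, and the difference between lines was not tested. Of 14 carriers of sugars, monocarboxylates and nucleosides tested none rose or fell, and the same limit holds for a list of that size. SLC16A1, a lactate carrier, was at 222 and 198 CPM in the C4-2B ENZR knockdown and control and at 138 and 106 CPM in those of LNCaP. Across 214 other SLC genes tested 12 rose and none fell, a share near the 4.22% of all genes that rose.

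**Figure D5:**
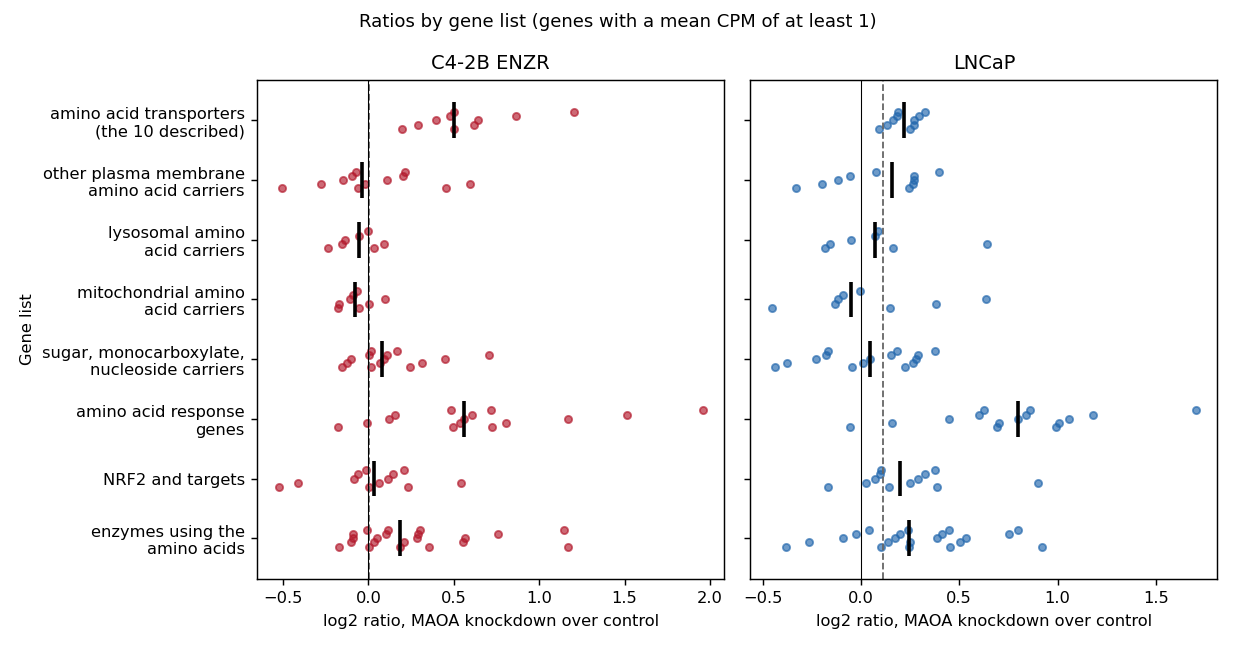
log2 ratio of MAOA knockdown over control (horizontal) for genes with a mean of at least 1 CPM in each list, in C4-2B ENZR (left) and LNCaP (right), with black bars at list medians and a dashed line at the median of all measured genes. The transporter median is 0.50 in C4-2B ENZR and 0.22 in LNCaP, whereas that of the amino acid response genes is 0.56 and 0.80.

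Of 15 genes of the amino acid response, the pathway that acts through ATF4, 13 had a ratio above 0 in C4-2B ENZR and 14 in LNCaP. Of all measured genes 50.4% were above 0 in C4-2B ENZR and 66.6% in LNCaP. Over both lines 11 of the 15 rose in limma, where 4.22% of all genes tested did. None fell, where 1.49% of all genes did. On recomputed TMM factors edgeR also called 11 of the 15 higher, against 1.33% of all genes. The median log2 ratios of the 15 genes, 0.56 (C4-2B ENZR) and 0.80 (LNCaP), stand beside 0.50 and 0.22 for the transporters. ASNS, asparagine synthetase, was at 336 and 149 CPM in the C4-2B ENZR knockdown and control and at 334 and 192 CPM in those of LNCaP. CHAC1, which degrades glutathione, was at 34.0 and 11.2 CPM in the C4-2B ENZR knockdown and control and at 36.5 and 19.6 CPM in those of LNCaP. DDIT4, an inhibitor of mTORC1, was at 465 and 119 CPM in the C4-2B ENZR knockdown and control and at 785 and 394 CPM in those of LNCaP. In C4-2B ENZR the log2 ratios were 0.72 for SESN2, a leucine sensor, and 0.72 for TRIB3, which binds ATF4, and in LNCaP they were 1.01 and 1.06. Both lie above all 10 transporters in LNCaP.

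Of 12 genes of the NRF2 list only HMOX1, heme oxygenase, rose, where 4.22% of all genes tested did. It was at 28.5 and 19.3 CPM in the C4-2B ENZR knockdown and control and at 36.9 and 19.3 CPM in those of LNCaP. NQO1, a quinone reductase, was at 188 and 169.8 CPM in the C4-2B ENZR knockdown and control and at 169 and 166 CPM in those of LNCaP and did not pass. Where 4.22% of all genes tested rose and 1.49% fell, 5 of 21 enzymes that use the carried amino acids rose and none fell. They were ASNS, CTH, ASS1 (argininosuccinate synthase, log2 ratios 0.57 and 0.92), BCAT1 (a branched-chain aminotransferase, 0.76 and 0.41) and GPT2 (an alanine aminotransferase, 0.36 and 0.50), all but GPT2 also by edgeR on recomputed TMM (adjusted p of GPT2 0.0685).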

How the data were processed

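RNA was sequenced as single reads of 50 nt, per the labels' protocols. The submitters' processing notes name Bowtie2 2.1.0, RSEM 1.2.15, edgeR and the hg19 build; annotation and filters are not stated there. The authors deposited 1 table per line of CPM scaled by TMM. TMM divides by an effective library size, so a column need not sum to the CPM total. The deposited LNCaP values, whose knockdown column sums to 1.0645e+06, were recorded as a signal for that reason and are printed as TMM-scaled CPM. The tables were normalized separately, so ratios were taken within a table. All values (100%) were whole multiples of 1 read within 0.01 read, so reads were recovered. A gene without reads could thus be at up to 3 reads, or 0.0529 to 0.122 CPM.

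Ratios used a pseudocount of 1, which understates changes of low genes, and exact conditional 95% counting intervals without it. limma 3.58.1 in R 4.3.3 (trended prior, adjusted p under 0.05) was fitted across all genes whose mean reached 1 CPM in each table. Nothing in the labels shows separate cultures within a group. edgeR 4.0.16 and DESeq2 1.42.0 were run on recovered reads as alternatives, edgeR with the deposited scaling calling 584 genes higher and 205 lower. limma, edgeR with recomputed TMM and DESeq2 were also run on simulated data, and edgeR with the deposited scaling was not tested in this way. No result of those runs is given, so they do not show how reliable the calls are. Other alternatives were pseudocounts of 0.1 and 5, a mean CPM of at least 5 or no filter, centring, rescaling to the same sum and a constant prior. Ratios within a line under recomputed TMM and DESeq2 size factors were added after seeing the data. Members, lists and motifs were chosen with earlier results of these data known. All members are named, and of other lists at most 6 genes, those that passed first and then the most abundant, besides the 6 nearest to SLC7A11. The authors' hg19 coordinates were not used.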

Additional observations from a re-analysis of the deposited data

How the results depend on the processing

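The count of transporters that rose, 5 as reported, was 5 with pseudocounts of 0.1 and 5 and with a mean CPM of at least 5, and 6 after centring. It was 3 after rescaling to the same sum, 2 with a constant prior, 3 in edgeR with the deposited scaling, and 0 in edgeR with recomputed TMM, in DESeq2 and in limma without a filter on low values. None fell under any of these. Of all genes, 554 rose and 195 fell as reported, 0 and 0 without a filter, 578 and 543 after centring, 351 and 653 after rescaling, 326 and 130 with a constant prior, 175 and 128 in edgeR with recomputed TMM and 132 and 90 in DESeq2. DESeq2 gave no adjusted p for 1017 genes, none of them a member. With a 2-fold threshold 1 transporter, SLC7A11, was higher in C4-2B ENZR, against 4 at 1.5-fold. The cause of these moves was not tested.

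Directions in C4-2B ENZR held for all 10 transporters under the deposited, centred and rescaled values, recomputed TMM and DESeq2 size factors. In LNCaP they depended on the scaling. The effective sizes behind the deposited LNCaP values were 48861100 in the knockdown and 56752500 in the control, against 47772900 and 50889200 with TMM recomputed. With recomputed TMM SLC7A11 was at -0.0334 and with DESeq2 size factors at -0.0204, both chosen after seeing the data, and the other 9 stayed above 0. Centred on the median log2 ratio of 0.13, SLC7A11 was at -0.0445 and SLC1A4 at -0.0038, and rescaled to the same sum SLC7A11 was at -0.11, SLC1A4 at -0.0596, SLC1A5 at -0.0349, SLC38A2 at -0.0159 and SLC7A1 at -0.0141. With 1 library per group no replicate could be left out, and leaving out a line leaves no residual degrees of freedom. Knockdown and control are compared within a line by the line term, and the labels give no replicate numbers for a further block.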
